A study of Arabidopsis thaliana with 15 samples.

Results

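The chloroplast genome of Arabidopsis thaliana is represented in the count table by 64 genes, all those whose identifier starts with ATCG, out of 14190 genes in all. They were taken as a whole, without regard to any measured value. The study treated seedlings with cercosporin, a light-activated toxin of Cercospora fungi that makes reactive oxygen species, singlet oxygen above all, when lit. Every library came from whole seedlings of wild type Col-0, 2 weeks old, grown on half-strength MS medium with sucrose under long days. RNA libraries of 3′ ends (bulk MARS-seq, which primes cDNA synthesis on A stretches) were made from 5 groups of 3 libraries: an untreated control and cercosporin at 0.1, 1, 10 and 100 µM. Seedlings given cercosporin spent 1 h with it in darkness, were washed 3 times in water and were then lit at 30 µE for 30 min. The controls stayed in light throughout, and no wash, light intensity or lit time is stated for them. Each comparison with them therefore holds the dark step, and possibly the washes and the set light, as well as the toxin. The 4 doses share 1 light regime. The labels do not say whether the 3 libraries of a group came from separate plates of seedlings or how many seedlings each holds, so the p-values measure the spread between libraries, which may be technical.

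The chloroplast genome is a small circular chromosome, present in many copies in each plastid, that encodes core subunits of the photosystems, the cytochrome b6f complex, the ATP synthase and the NDH complex, the large subunit of Rubisco, and parts of the plastid's own ribosome and RNA polymerase, together with its rRNAs and tRNAs. Its genes are read by a bacterial-type polymerase, whose core is encoded in the plastid and whose sigma factors and associated proteins are encoded in the nucleus, and by phage-type polymerases imported from the cytosol. Most primary transcripts span several genes and are cut, trimmed and protected by imported nucleases and RNA-binding proteins. In plastids, as in bacteria, an A-rich tail marks an RNA for breakdown and does not stabilise it. A library primed on A stretches therefore samples plastid RNA through tails or through A runs within the RNA. A count here is not a measure of how abundant an RNA is relative to another gene's. Between groups, a change in tailing could also change the count of the same gene, and whether tailing differed was not tested. The falls and rises of chloroplast genes given below are therefore changes in counts, which may differ from changes in RNA abundance.

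Of the 64 genes, 3 are named here, through the RefSeq notes on their nuclear relatives: ATCG00530 (cemA, an envelope protein linked to proton extrusion), ATCG00660 (rpl20, ribosomal protein L20) and ATCG01310 (rpl2, ribosomal protein L2). RefSeq lists 2 plastid genes named rpl2, the copies of an inverted repeat, so the reads of ATCG01310 could be split between near-identical copies and its values are uncertain. Other genes of the repeat would share that limit, and which identifiers those are was not established here. Rows given below as separate genes may therefore be copies of the same gene. The others are given by identifier only, and the genes were not sorted into complexes. No coordinates or sequences are printed for them, since the genome build behind the counts is not given in the sources used here.

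The libraries held 834190 to 4554702 counts each, of which 2139 to 31355 fell on chloroplast genes. Between 43 and 63 of the 64 genes had at least 1 count in a library. Levels below are in CPM, counts per 1000000 of the library after TMM scaling (a factor that corrects for differences in library make-up), and a count of 3, taken here as the floor, is worth 0.665 to 3.43 CPM depending on the library. Of the 64 genes, 39 passed the filter on low counts and were tested, among 10374 genes tested in all. The 3 leaf markers checked (RBCS1A, LHCB1.3 and PSBR) summed to 38460 to 53350 CPM in the controls and 32070 to 46250 CPM at 100 µM, and the 5 root markers (PYK10, CASP1, COBL9, EXPA7 and NRT2.1) to 91.8 to 102.6 and 98.2 to 186.2 CPM. At 0.1, 1 and 10 µM the root markers summed to 125.6 to 161.5, 118.9 to 138.5 and 68.29 to 97.31 CPM, so sums above the controls were not particular to 100 µM. RBCS1A read 5304, 16980 and 17230 CPM in the 100 µM libraries. No marker was at 0 in every library of a group. In the 100 µM libraries 1 of the 3 leaf markers was lower and 2 of the 4 root markers tested were higher than in the controls (edgeR, adjusted p under 0.05; COBL9 was not tested), and their part in the results below was not tested. The sample codes of all 3 libraries at 100 µM begin with 1 and those of all other libraries with 7 or 8; what that digit stands for is not stated, and it cannot be told apart from the dose. Some genes held most of their reads of the whole series in 1 library, as ATCG01210 did in 10 µM replicate 3.

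Chloroplast genes took a small share of all counts, and that share was lower in every library at 100 µM than in every other library. In the controls it was 0.462%, 0.451% and 0.490% (0.468% ± 0.0203, SD, n = 3). It was 0.358%, 0.553% and 0.508% at 0.1 µM (0.473% ± 0.102, n = 3), and 0.453%, 0.559% and 0.491% at 1 µM (0.501% ± 0.0535, n = 3). At 10 µM it was 0.493%, 0.545% and 0.688% (0.576% ± 0.101, n = 3), above the controls in all 3 libraries. At 100 µM it was 0.248%, 0.205% and 0.211% (0.221% ± 0.0234, n = 3), which is 0.473 times the control mean. The 95% Wilson interval of a library's share reached at most 0.016 percentage points to either side, and covers counting error only.

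With 3 libraries against 3 an exact two-sided permutation test cannot give a p below 0.1. The difference at 100 µM (-0.246 percentage points) and the one at 10 µM (0.108 points) both reached that exact p of 0.1 (0.2 after Benjamini-Hochberg adjustment over the 4 doses), while 0.1 µM had an exact p of 1 and 1 µM an exact p of 0.4 (adjusted 1 and 0.533). Without ATCG01210 the mean at 10 µM was 0.543% ± 0.0491 (n = 3) and the difference from the controls 0.0758 points, with the same exact p of 0.1. Without ATCG00740, the gene with the most reads, the difference at 10 µM was 0.0547 points (exact p = 0.2). There 10 µM replicate 1 (0.2805%) lay under control replicate 3 (0.2842%). At 100 µM that omission gave -0.136 points, with an exact p of 0.1. The 23 mitochondrial genes of the table took 1.02% ± 0.15 (n = 3) in the controls and 0.356% ± 0.0709 (n = 3) at 100 µM, 0.35 times the control mean (exact p = 0.1, 0.4 adjusted over the 4 doses). The ratio of chloroplast to mitochondrial counts was 0.380 to 0.542 in the controls and 0.567 to 0.663 at 100 µM. The 9 libraries of the lower doses together overlapped both groups: 0.1 µM ran from 0.330 to 0.574, 1 µM from 0.397 to 0.526, and 10 µM from 0.437 to 0.893, with replicate 3 above every 100 µM library. In bulk samples like these, fewer cells of a type and less RNA per cell cannot be told apart.

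**Figure D1:**
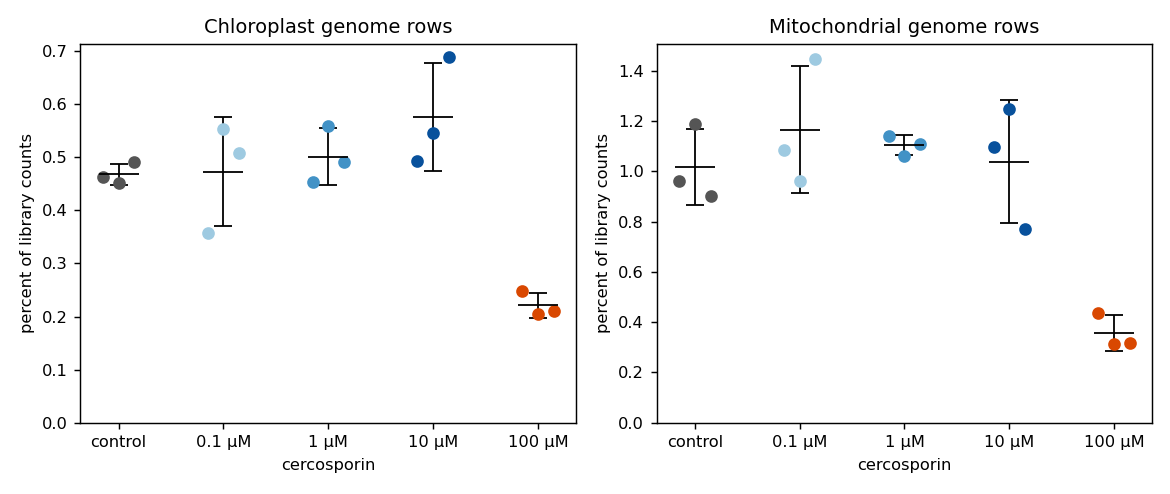
Share of each library's counts (percent) on genes of the chloroplast genome and of the mitochondrial genome, in the control and at each cercosporin dose (µM); points are libraries, lines the mean of 3 and bars the SD. The chloroplast share at 100 µM lies between 0.205% and 0.248%, below all 12 other libraries.

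The question of which chloroplast transcripts differ after a dose was asked gene by gene. At 100 µM against the controls, 24 of the 39 tested genes passed (edgeR's quasi-likelihood test over all 10374 genes, Benjamini-Hochberg adjusted p under 0.05), 5 higher and 19 lower. Over all genes tested 32.7% passed, 18.1% higher and 14.6% lower. The median log2 change was -1.35 over the 39 chloroplast genes and -0.0208 over all genes tested, and the estimates ran from -6.12 to 3.18, with 30 below 0 and 9 above. The 39 had to reach a minimum level in some group to be tested: 38 of them also passed when the 100 µM libraries were left out of the filter, the exception being ATCG00540. By library, 22 of the 39 were lower in all 3 libraries at 100 µM than in all 3 controls and 7 were higher in all 3, beside 19.6% and 22.2% of all genes tested.

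**Figure D2:**
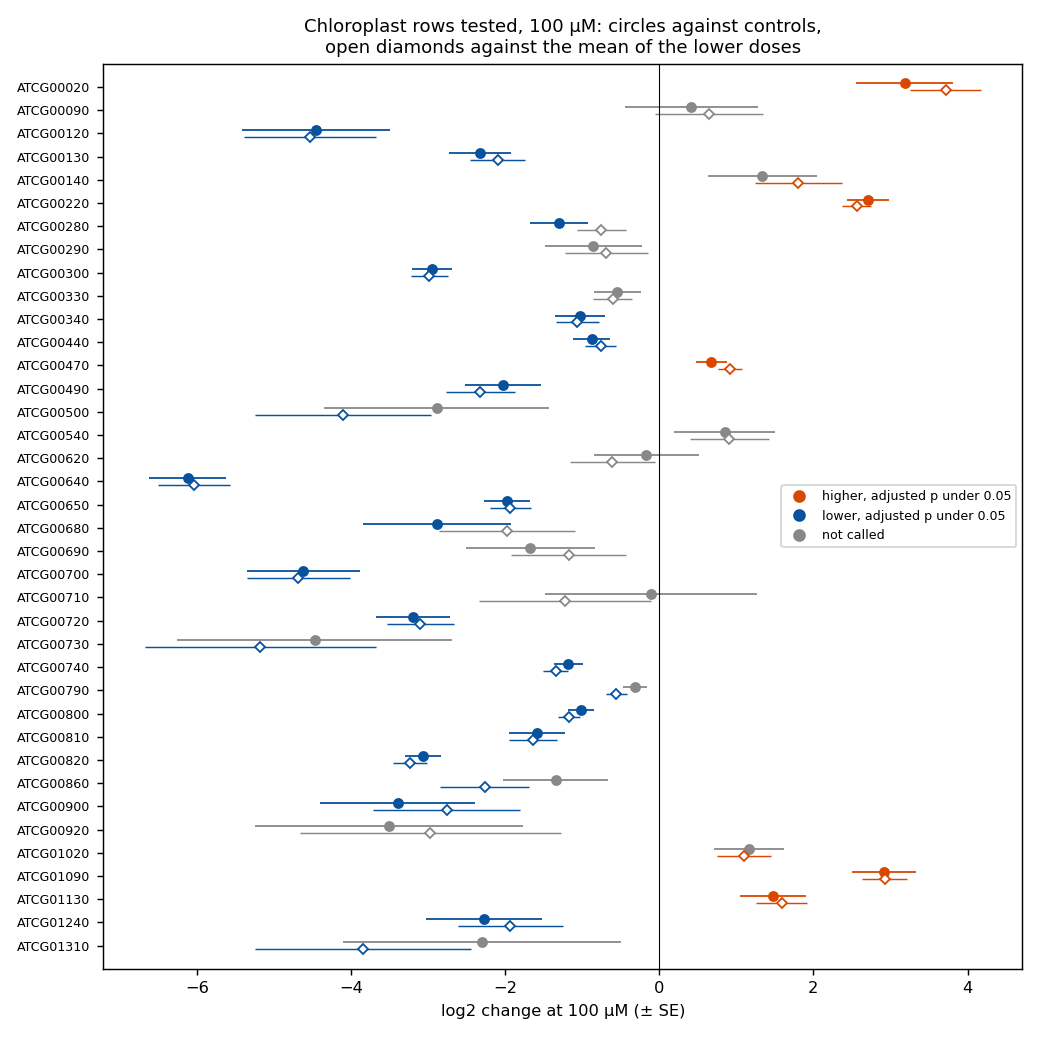
Log2 change at 100 µM of 38 of the 39 tested chloroplast genes, with its standard error, against the controls (circles) and against the mean of the 3 lower doses (open diamonds); orange marks a higher and blue a lower call, grey no call. The estimates run from -6.12 for ATCG00640 to 3.18 for ATCG00020 against the controls.

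Among the 19 genes that fell, ATCG00640 had the lowest estimate. It stood at 104, 58.8 and 118 CPM in the controls and 2.60, 0.982 and 0.687 CPM at 100 µM, and the 9 libraries of the lower doses ran from 63.4 to 149 CPM. No library at 100 µM came near the rest. The log2 change was -6.12 ± 0.50 (adjusted p = 9.64e-08, edgeR), and -6.86 without 100 µM replicate 1, the highest of the 3. ATCG00820 had the lowest p: it stood at 482, 418 and 483 CPM in the controls and 50.6, 36.3 and 73.2 CPM at 100 µM, against 395 to 649 CPM at the lower doses. Its log2 change was -3.07 ± 0.23 (adjusted p = 3.41e-08). The groups did not overlap, and the fall was 8.38-fold.

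ATCG00300 fell by a like amount on the log2 scale. It held 346, 193 and 346 CPM in the controls and 51.9, 31.4 and 31.3 CPM at 100 µM, with a log2 change of -2.95 ± 0.26 (edgeR, adjusted p = 2.42e-07). ATCG00720 went from 17.1, 9.80 and 31.3 CPM to 1.95, 3.93 and 1.38 CPM, a change of -3.20 ± 0.48 (adjusted p = 5.73e-05). Both sat below all 12 other libraries in every library at 100 µM. ATCG00650, whose identifier follows that of ATCG00640, went from 386, 176 and 337 CPM to 74.6, 96.2 and 61.2 CPM, a change of -1.98 ± 0.30 (adjusted p = 7.23e-05).

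Other genes that fell were left with almost no reads. The 3 libraries at 100 µM together held 3 reads of ATCG00700, 1 in each, against 87 in the controls, a ratio of 0.0363 (exact 95% counting interval 0.00734 to 0.11). They held 1 read of ATCG00120 against 29 in the controls, a ratio of 0.0363 (0.000888 to 0.219), and 2 reads of ATCG00900 against 25, a ratio of 0.0842 (0.00966 to 0.337). These intervals cover counting error only and leave out the spread between libraries. The adjusted p of the 3 genes was 0.000119, 0.00158 and 0.015 (edgeR). The call of ATCG00900 was lost without control replicate 3 or without 100 µM replicate 3, while the single read of ATCG00120 came from 100 µM replicate 3, without which its fitted log2 change went from -4.46 to -6.55. ATCG01240 had 3.23, 4.61 and 5.40 CPM in the controls and 0, 0 and 1.72 CPM at 100 µM (log2 change -2.27 ± 0.76, adjusted p = 0.0278). That call was lost without control replicate 2 or 3 or without 100 µM replicate 1 or 2, and the change was -6.34 without 100 µM replicate 3, which held all of its reads at that dose.

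The gene with the most reads, ATCG00740, was also lower. It took 42.3% ± 0.293 (SD, n = 3) of the chloroplast counts in the controls and 38.9% ± 7.69 (n = 3) at 100 µM. Its level was 2013, 1872 and 2078 CPM in the controls, 1730, 2688 and 2249 CPM at 0.1 µM, 1901, 2120 and 1906 CPM at 1 µM, 2124, 2483 and 2935 CPM at 10 µM and 1077, 631 and 921 CPM at 100 µM. All 3 libraries at 100 µM were below all 12 others, and 100 µM replicate 2 was the lowest. The log2 change was -1.18 ± 0.19 (edgeR, adjusted p = 0.000115).

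ATCG00800 changed by nearly the same amount, from 237, 213 and 266 CPM to 117, 104 and 131 CPM (-1.02 ± 0.17 on the log2 scale, adjusted p = 0.000141, edgeR). ATCG00130 went from 28.6, 56.5 and 47.0 CPM to 3.25, 18.7 and 7.22 CPM, with 100 µM replicate 2 far above the other two (-2.33 ± 0.40, adjusted p = 0.000253, and -2.95 without that library). ATCG00490 went from 83.5, 61.1 and 62.6 CPM to 13.0, 32.4 and 10.7 CPM (-2.03 ± 0.50, adjusted p = 0.00431), again with replicate 2 the highest. ATCG00810 went from 14.3, 12.7 and 11.9 CPM to 3.25, 3.93 and 5.16 CPM (-1.59 ± 0.36, adjusted p = 0.0023). In all 3 genes the control and 100 µM libraries did not overlap.

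Of the last 4 genes that fell, 3 lost their call when single libraries were left out. ATCG00440 went from 33.2, 39.2 and 40.5 CPM to 19.5, 17.7 and 23.0 CPM (-0.88 ± 0.24, adjusted p = 0.00822, edgeR), with no overlap. ATCG00340 went from 256, 231 and 241 CPM to 180.4, 74.7 and 99.3 CPM (-1.03 ± 0.32, adjusted p = 0.0197), a call lost without 100 µM replicate 2 or 3. ATCG00280 depended on 1 control: it read 117, 384 and 116 CPM in the controls and 83.7, 71.7 and 92.1 CPM at 100 µM (-1.30 ± 0.38, adjusted p = 0.0127), and without control replicate 2 the change was -0.51 (adjusted p = 0.167, edgeR). ATCG00680 read 19.4, 13.8 and 74.5 CPM in the controls and 0.649, 9.82 and 5.16 CPM at 100 µM (-2.88 ± 0.96, adjusted p = 0.0273). Its call was lost without control replicate 3 (-1.81, adjusted p = 0.184) and without 100 µM replicate 1 or 3.

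Against this fall, 5 genes were higher at 100 µM than in the controls. ATCG00220 stood at 19.4, 28.3 and 22.7 CPM in the controls and 142, 212 and 110.0 CPM at 100 µM, while the 9 libraries of the lower doses ran from 18.2 to 35.2 CPM. Every library at 100 µM was above every other one, and the log2 change was 2.71 ± 0.27 (edgeR, adjusted p = 7.96e-07), 6.55-fold. ATCG01090 went from 4.62, 3.46 and 2.70 CPM to 35.7, 24.6 and 23.4 CPM (2.92 ± 0.41, adjusted p = 3.54e-05), also with no overlap with any of the other 12 libraries.

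ATCG00020 was at 4.15, 5.19 and 6.48 CPM in the controls and at 14.3, 116 and 22.3 CPM at 100 µM. All 3 libraries were above the other 12, which reached at most 8.00 CPM, but replicate 2 held 118 reads and stood 5.19 times above the next library. The log2 change was 3.18 ± 0.63 (edgeR, adjusted p = 0.000801) and 1.81 (adjusted p = 0.0036) without that library. ATCG01130 went from 5.54, 5.19 and 3.78 CPM to 17.5, 15.7 and 8.94 CPM (1.48 ± 0.43, adjusted p = 0.0136), a call lost without control replicate 3 or 100 µM replicate 1. ATCG00470 had the smallest rise: it read 103, 120.0 and 148 CPM in the controls and 245, 179 and 168 CPM at 100 µM (0.67 ± 0.20, adjusted p = 0.0153), with no overlap, and its call was lost without control replicate 1 or 2 or 100 µM replicate 1.

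**Figure D3:**
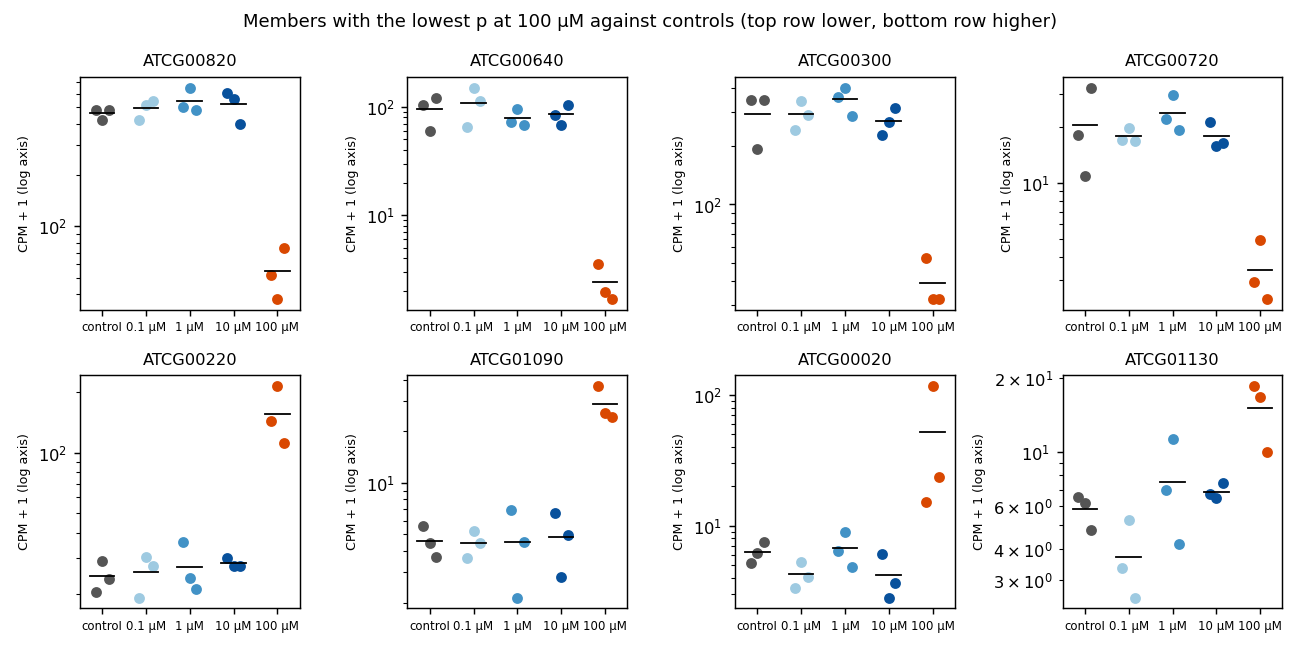
Level in every library (CPM + 1, log axis) of the 4 genes with the lowest p among those lower at 100 µM (top) and among those higher (bottom); points are libraries, lines the mean of 3, panels by gene. ATCG00640 stays at or under 2.6 CPM in all 3 libraries at 100 µM, and ATCG00220 at or above 110 CPM.

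The 15 tested genes without a call at 100 µM against the controls were of 2 kinds. ATCG00790 and ATCG00330 were well counted: ATCG00790 read 238, 227 and 221 CPM in the controls and 171, 178 and 201 CPM at 100 µM (-0.32 ± 0.16, adjusted p = 0.131, edgeR). ATCG00330 read 131, 131 and 108 CPM and 130.4, 52.1 and 69.4 CPM (-0.55 ± 0.30, adjusted p = 0.18), with 100 µM replicate 1 among the controls and the other two below them. The remaining 13 had means under 32 CPM in both groups, and 12 of them a standard error over 0.6 on the log2 scale. ATCG00090, ATCG00540 and ATCG00620 had changes of 0.42 ± 0.86, 0.85 ± 0.66 and -0.17 ± 0.68. ATCG00290, ATCG00690 and ATCG00710 had changes of -0.85 ± 0.62, -1.67 ± 0.84 and -0.11 ± 1.38. ATCG00920 held 2 reads at 100 µM against 27 in the controls, a ratio of 0.0779 (exact 95% counting interval 0.00898 to 0.31), and its reads were uneven elsewhere, with 186 in 10 µM replicate 3. The other 6 are taken up in the next comparison, where they passed.

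The same 3 libraries were also set against the mean of the 3 lower doses, which share their light regime, so that dose and code digit differ but not the light. Here 29 of the 39 genes passed, 7 higher and 22 lower (edgeR, adjusted p under 0.05), beside 42.3% of all genes tested, 23.1% higher and 19.2% lower. The median log2 change was -1.34 over the chloroplast genes and -0.0324 over all genes. Both comparisons use the same 100 µM libraries and so are not independent. They shared 22 calls, 91.7% of those against the controls and 75.9% of those against the lower doses, and ATCG00280 and ATCG00680 were called against the controls alone.

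The genes called against the lower doses but not against the controls were ATCG00500, ATCG00730, ATCG00790, ATCG00860 and ATCG01310 among the lower ones and ATCG00140 and ATCG01020 among the higher. ATCG00860 read 11.2, 44.4 and 30.4 CPM at 0.1 µM, 44.2, 10.3 and 22.7 CPM at 1 µM, 21.5, 31.7 and 36.1 CPM at 10 µM and 3.25, 3.93 and 8.59 CPM at 100 µM (-2.27 ± 0.57, adjusted p = 0.00392, edgeR, and -3.00 without 100 µM replicate 3), but the controls themselves ran from 5.19 to 30.2 CPM. ATCG00790 changed by -0.56 ± 0.13 (adjusted p = 0.00221), and all 3 libraries at 100 µM were below all 12 others. ATCG01020 read 9.09, 21.6 and 10.3 CPM at 100 µM, above the 1.90 to 8.12 CPM of the other 12 (1.10 ± 0.35, adjusted p = 0.0177, a call lost without 100 µM replicate 2).

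Single libraries weighed on the other 4. ATCG00140 read 3.89, 82.5 and 7.91 CPM at 100 µM and 3.63 to 14.9 CPM at the lower doses. Its change of 1.805 ± 0.56 (edgeR, adjusted p = 0.0145) became -0.37 (adjusted p = 0.468) without 100 µM replicate 2, which turns the direction. ATCG00500 and ATCG00730 held 1 read each over the 3 libraries at 100 µM, against 162 and 304 at the lower doses, ratios of 0.0267 (exact 95% counting interval 0.000672 to 0.151) and 0.0142 (0.000359 to 0.0799). Both calls (adjusted p = 0.0074 and 0.00969) were lost without 100 µM replicate 3, at changes of -3.22 for ATCG00500 (adjusted p = 0.0696) and -7.28 for ATCG00730 (adjusted p = 0.0535, edgeR), whose only read at that dose was in that library. ATCG00500 had its only read in 100 µM replicate 1, without which its change was -6.30 (adjusted p = 0.00768). Of the 304 reads of ATCG00730 206 came from 10 µM replicate 2, and without that library the change went from -5.17 ± 1.50 to -4.38 (adjusted p = 0.000696, edgeR). For ATCG01310 185 of 303 reads at the lower doses came from 10 µM replicate 1, without which the change went from -3.84 ± 1.40 to -2.91 (adjusted p = 0.00368). Its call was lost without any 1 of the 3 libraries at 100 µM (-3.39, -3.56 and -7.64, adjusted p = 0.0769, 0.083 and 0.0796, edgeR). Among the genes called in both comparisons, ATCG00900 lost its call against the lower doses without 1 µM replicate 3 (-1.94, adjusted p = 0.15) or without 100 µM replicate 2 or 3. ATCG01240 lost it without 100 µM replicate 1 or 2 and stood at -6.00 without replicate 3.

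The fall was uneven, so the make-up of the chloroplast counts shifted at 100 µM. A gene's share of the chloroplast counts of its own library leaves out any change that all chloroplast genes have in common. Shares have a fixed total, so a fall in some genes raises the shares of others. In 10 µM replicate 3, ATCG01210 held 4453 of the 31355 chloroplast counts, which lowered every other share there. By that measure 7 of the 39 tested genes were above all 12 other libraries in all 3 libraries at 100 µM, 7 were below them all, and 25 overlapped. In CPM the same comparison gave 5 above, 15 below and 19 overlapping, beside 15.9% above and 11.1% below over all genes tested.

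The genes above were ATCG00020, ATCG00220, ATCG00470, ATCG00540, ATCG01020, ATCG01090 and ATCG01130. In CPM, ATCG00540 overlapped libraries of the other groups, and it had no call at 100 µM. ATCG00220 took 0.405%, 0.643% and 0.46% of the chloroplast counts in the controls and 5.70%, 10.1% and 5.19% at 100 µM. ATCG00470 took 2.16%, 2.73% and 3.00% in the controls and 9.84%, 8.51% and 7.95% at 100 µM. The genes below were ATCG00120, ATCG00300, ATCG00640, ATCG00700, ATCG00720, ATCG00730 and ATCG00820. ATCG00820 took 10.1%, 9.51% and 9.80% in the controls and 2.03%, 1.73% and 3.46% at 100 µM. ATCG00300 took 7.24%, 4.40% and 7.02% in the controls and 2.08%, 1.50% and 1.48% at 100 µM.

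Genes with consecutive identifiers did not always move together. The ratio of ATCG00640 to ATCG00650 counts was 0.224 to 0.447 in the 12 other libraries and 0.0348, 0.0102 and 0.0112 at 100 µM. The ratio of ATCG00790 to ATCG00800 was 0.83 to 1.13 in those 12 and 1.47, 1.71 and 1.53 at 100 µM. The ratio of ATCG00330 to ATCG00340 was 0.435 to 0.719 in the 12 and 0.723, 0.697 and 0.699 at 100 µM, which overlaps 10 µM replicate 1 at 0.719. These 3 pairs were chosen after their values were seen, and ratios between counts of 2 genes carry no correction for where in the RNA the reads lie.

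At the lower doses no chloroplast gene passed against the controls in the fit of all 5 groups. At 0.1 µM 0 of 39 were called (edgeR, adjusted p under 0.05), beside 0% of all genes tested, and 3 (7.69%) had an unadjusted p under 0.05, against 5.52% of all genes. At 1 µM 0 of 39 were called, beside 0.183% of all genes, and 0 had an unadjusted p under 0.05, against 6.38% of all genes. At 10 µM 0 of 39 were called, beside 0.00964% of all genes, and 6 (15.4%) had an unadjusted p under 0.05, against 5.4% of all genes. With the first digit of the sample code as a term and no 100 µM libraries in the fit, ATCG00280 was called at 10 µM (-1.93, adjusted p = 0.0235, edgeR). Digit 8 marks all 10 µM libraries and, among the controls, replicate 2 alone, so that comparison rests on 1 control. That control read 384 CPM of ATCG00280, against 117 and 116 CPM in the other controls. The mean of the 3 doses against the controls gave 0 of 39, beside 0%, and 0 at an unadjusted p under 0.05 (5.02% of all genes). Neither DESeq2 nor limma-voom called any of the chloroplast genes in these 4 comparisons (0 each). The median log2 change of the 39 was -0.09 at 0.1 µM, 0.13 at 1 µM and 0.08 at 10 µM.

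The lowest p at 10 µM belonged to ATCG00500, with 3.23, 0.577 and 1.08 CPM in the controls and 7.59, 28.4 and 5.54 CPM at 10 µM (3.00 ± 0.70 on the log2 scale, adjusted p = 0.549, edgeR). All 3 libraries at 10 µM were above the other 12, and replicate 2 was the highest. ATCG00790 came next, with 238, 227 and 221 CPM in the controls and 343, 279 and 357 CPM at 10 µM (0.51 ± 0.15, adjusted p = 0.804). At 0.1 µM ATCG00470 read 72.5, 92.0 and 83.7 CPM against 103, 120.0 and 148 CPM in the controls (-0.58 ± 0.20, adjusted p = 0.761), with no overlap between the groups. None of these differences passed.

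Between 10 and 1 µM 0 of the 39 were called, beside 0.887% of all genes tested, and 7 (17.9%) had an unadjusted p under 0.05, against 11.1% of all genes. The lowest adjusted p was 0.0928 (edgeR), for ATCG00500 (2.52 ± 0.68). ATCG00280 read 219.8, 161 and 279 CPM at 1 µM and 106, 97.0 and 103 CPM at 10 µM (-1.12 ± 0.37, adjusted p = 0.191). Those libraries did not overlap, but they also differ in the first digit of the sample code. A fit on the 6 libraries of these doses alone called 3 genes, ATCG00140 (-1.41, adjusted p = 0.0448), ATCG00280 (-1.15, 0.00201) and ATCG00500 (2.50, 0.0484).

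**Figure D4:**
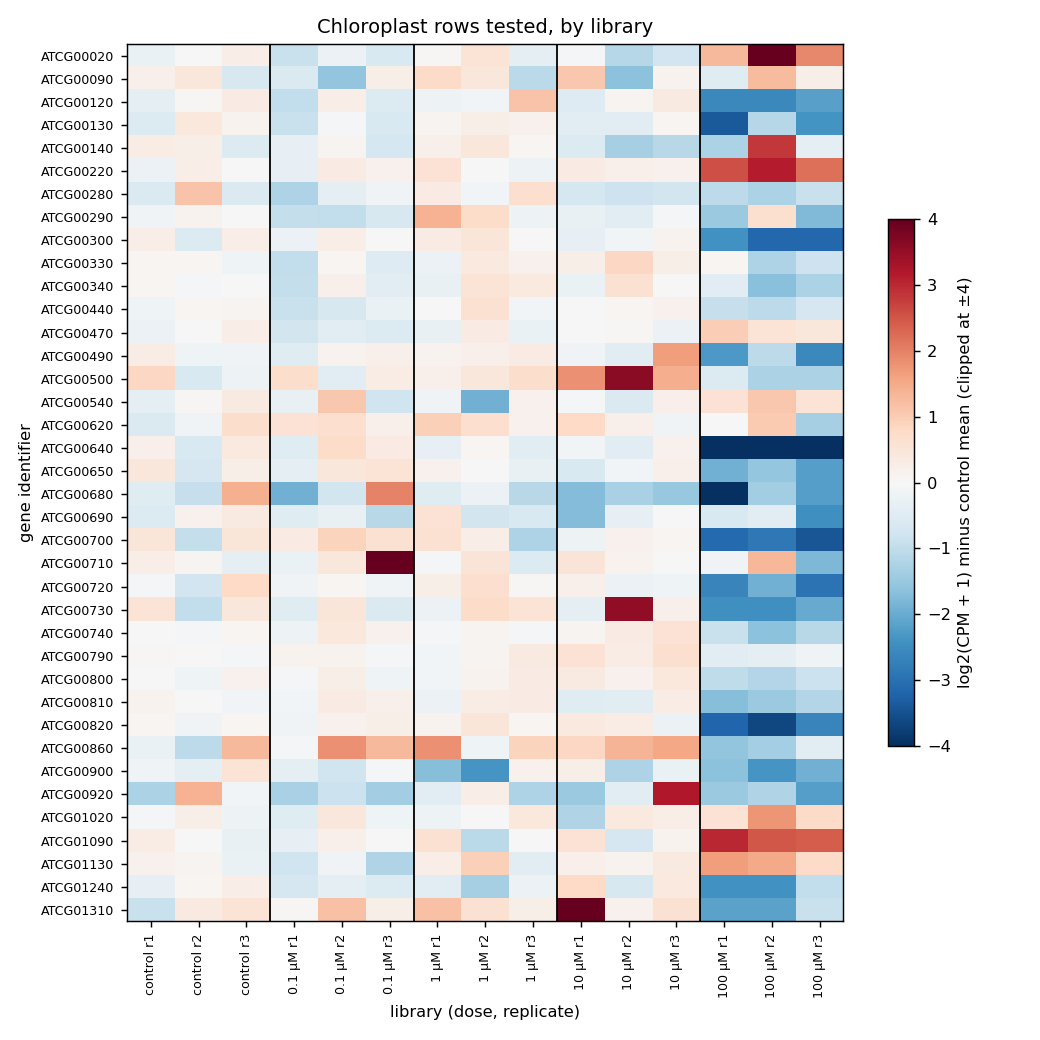
Level of 38 of the 39 tested chloroplast genes in each of the 15 libraries, as log2(CPM + 1) minus the control mean, clipped at 4 to either side; rows are genes in identifier order and columns libraries by dose. The 3 columns at 100 µM are blue in most rows and red in a few, while the columns of the lower doses stay near the controls apart from single cells such as ATCG00710 in 0.1 µM replicate 3.

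Libraries of a group spread more for chloroplast genes than for other genes, a description with no test. The median residual SD of log2 level within groups was 0.574 over the 39 tested and 0.378 over all genes tested. It was 0.379 over the 9026 genes of the same range of levels as the middle 31 chloroplast genes had (0.574 for those 31). That range, 1.81 to 7.78 in log2 CPM, is wide and holds most genes tested, so levels were not matched within it. Jumps were also counted, defined as a library with at least 20 reads of a gene and a level at least 5 times that of every other library. They occurred in 9 of the 39 chloroplast genes with at least 20 reads in the library of their highest CPM (23.1%). They occurred in 0 of 12 such mitochondrial genes and in 6 of 8685 such nuclear genes (0.0691%). These 39 are not the 39 tested genes: ATCG00200, ATCG00520, ATCG00930 and ATCG01210 had jumps but were not tested.

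The clearest was ATCG01210, with 4453 of its 4463 reads in 10 µM replicate 3 and at most 3 in any other library. In that library ATCG00520 had 91 reads, against at most 2 elsewhere. ATCG00930 had 32 reads in control replicate 1 and at most 1 elsewhere. ATCG00710 had 287 reads in 0.1 µM replicate 3, ATCG01310 185 in 10 µM replicate 1, ATCG00730 206 in 10 µM replicate 2 and ATCG00200 34 in 0.1 µM replicate 1. At 100 µM replicate 2 held the jumps of ATCG00020 (118 reads) and ATCG00140 (84 reads). The 9 jumps lay in 7 libraries of 4 groups, the 1 µM group having none. The deposited counts were not filtered on molecular tags, going by the authors' name for the table, so reads copied from 1 molecule during amplification count more than once; their part in the jumps was not tested.

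**Figure D5:**
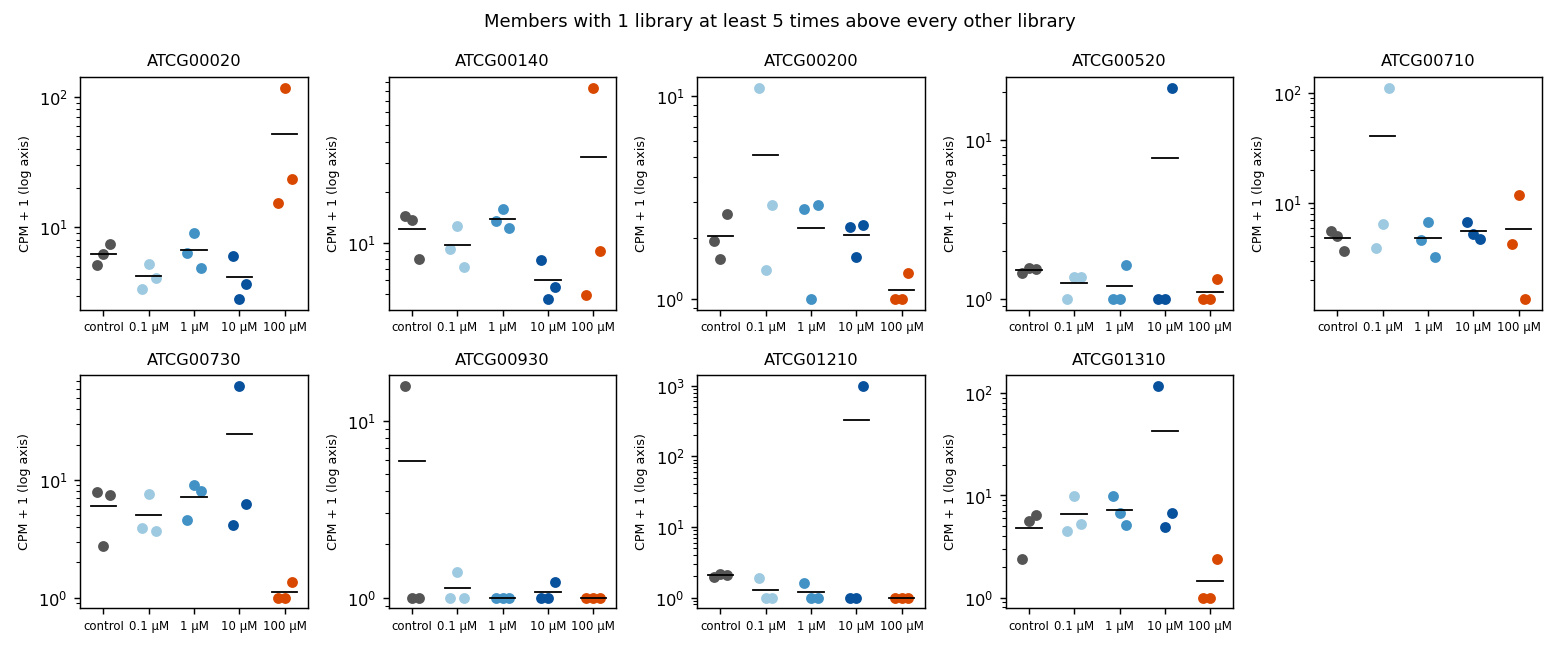
Level in every library (CPM + 1, log axis) of the 9 chloroplast genes in which 1 library stood at least 5 times above all others; points are libraries, lines the mean of 3. ATCG01210 reaches 987 CPM in 10 µM replicate 3 and at most 1.15 CPM in the other 14 libraries.

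The 25 genes that were not tested had totals of 12 to 4463 reads over the 15 libraries, with a median of 46, and of 12 to 99 without ATCG01210. For 7 of them no read was found in any library at 100 µM: ATCG00110 (47 reads in all), ATCG00350 (32), ATCG00380 (51), ATCG00400 (15), ATCG00830 (28), ATCG00930 (34) and ATCG01210. At a depth where 3 reads are worth 1.03 to 2.95 CPM at 100 µM, that does not show that they were off. ATCG01050 had its highest count, 11 reads, at 100 µM, out of 46 in all. ATCG00160, ATCG00180, ATCG00660, ATCG01040 and ATCG00780 had 60 to 81 reads in all and at most 6 in a library at 100 µM. The rest were ATCG00040, ATCG00170, ATCG00200, ATCG00310, ATCG00450, ATCG00510, ATCG00520, ATCG00530, ATCG00760, ATCG00940, ATCG00960 and ATCG01280.

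Of the 3 named genes, 1 was tested. rpl2 (ATCG01310), a protein of the large subunit of the plastid ribosome, read 1.38, 4.61 and 5.40 CPM in the controls and 0, 0 and 1.38 CPM at 100 µM (log2 change -2.30, adjusted p = 0.357), and was called only against the lower doses (-3.84 ± 1.40, adjusted p = 0.0337), where 10 µM replicate 1 held 117 CPM. rpl20 (ATCG00660) had 81 reads in all and cemA (ATCG00530) 64, of which 25 were in 1 µM replicate 3 and 18 in 10 µM replicate 2, and neither was tested.

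Nuclear genes for plastid transcription and RNA metabolism showed changes in both directions. A list of 42 was drawn up from sigma factors, polymerase-associated proteins, phage-type polymerases, ribonucleases and RNA-binding proteins, of which 34 were in the table and 27 were tested. At 100 µM against the controls 5 of the 27 passed (18.5%, beside 32.7% of all genes tested), 2 higher and 3 lower, with a median log2 change of 0.00342. HCF107, which binds and protects the end of a plastid photosystem II transcript, read 11.5, 7.5 and 12.4 CPM in the controls and 39.6, 22.6 and 38.5 CPM at 100 µM. Its change was 1.69 ± 0.30 (edgeR, adjusted p = 3e-04) and its groups did not overlap. PTAC6, a protein bound to the plastid-encoded polymerase, read 70.2, 39.2 and 57.2 CPM in the controls and 106.4, 106.1 and 81.8 CPM at 100 µM (0.81 ± 0.22, adjusted p = 0.00787), a call lost without control replicate 2.

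MURE, another polymerase-associated protein, was lower (-1.63 ± 0.50, adjusted p = 0.0172, edgeR), a call lost without 100 µM replicate 2 (adjusted p = 0.0507). So were the RNA-binding protein genes CP31B (-1.09 ± 0.40, adjusted p = 0.0462) and AT2G37220 (-0.54 ± 0.19, adjusted p = 0.0365), each with a call that 4 or more of the 15 single-library omissions ended. Without 100 µM replicate 3 CP31B stood at -2.24 (adjusted p = 0.000966, edgeR). Against the lower doses 10 of the 27 passed (37%, beside 42.3%), 5 higher and 5 lower. The sigma factor genes SIG3 (0.92 ± 0.27, adjusted p = 0.00909) and SIG4 (1.43 ± 0.37, adjusted p = 0.00397) were among the higher, with CSP41A (0.52 ± 0.14), which binds and cuts plastid RNA. PTAC3 (-1.08 ± 0.35) and PRIN2 (-0.56 ± 0.16) were among the lower. SIG3 lost its call without 100 µM replicate 1, and PTAC3 without 100 µM replicate 2 or 3, while without replicate 1 PTAC3 stood at -1.73 (adjusted p = 0.00123, edgeR). At 0.1, 1 and 10 µM against the controls 0 of the 27 were called in each comparison (edgeR), with 1, 0 and 0 at an unadjusted p under 0.05.

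For comparison with the other organelle, 14 of the 23 mitochondrial genes were tested. At 100 µM against the controls 4 of the 14 passed, all lower (28.6%, beside 32.7% of all genes), and their median log2 change was -0.64. Estimates were below 0 for 13 of the 14, and the highest was 0.28. Against the lower doses again 4 of the 14 passed and all were lower. No test was made of the difference between the organelles.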

How the data were processed

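Bulk MARS-seq libraries of Arabidopsis whole seedlings were deposited by the authors as 1 table of raw read counts per gene. Per the submitters' processing notes, bcl2fastq 2.17.1.14, cutadapt 1.8.3, STAR, HTSeq and DESeq2 were used; genome build, annotation and strand setting: not given in the sources used here. By the authors' name for the deposited table, reads were not filtered on molecular tags. All 15 count columns matched the labels and 0 further per-sample columns were present. The counts were fitted with edgeR 4.0.16 (R 4.3.3): filterByExpr by group, TMM factors, 1 quasi-likelihood fit over the 5 groups, 7 comparisons, Benjamini-Hochberg adjustment over the 10374 genes tested, threshold 0.05. Standard errors of log2 changes were worked back from each change and the F statistic of its test, not estimated directly in the fit. The fit was tested on simulated data with the same dispersion for every gene and as many rises as falls. The simulation held no single-library jumps and no shift of the chloroplast genes, so it does not show how the fit does on them. Shares of counts were compared with exact two-sided permutation tests. Library totals ran from 834190 to 4554702; intervals are 95% Wilson or exact binomial and the floor is 3 counts.

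All ATCG genes enter the fits and counts, and 1 is not reported here by itself; those called in any comparison (up to 25 per comparison by adjusted p, and the 4 further calls against the lower doses, added after values were seen) are given with their levels, as are genes of the nuclear list that were called. A count of jumps and the ratios of consecutive genes were added after values were seen. The members and lists were chosen with earlier results of these data known. Identifiers were matched to RefSeq names on TAIR10.1, and 3 of the 64 are given with a name. A planned description of sequence length, GC content and A runs was void, because fewer than 80% of the genes could be matched to a sequence. Alternatives were RLE and upper-quartile factors, nuclear library sizes, DESeq2 1.42.0, limma-voom 3.58.1, no filter, thinning, fewer groups in the fit, the code digit, a replicate block and leaving out each library. In the replicates of each group no 2 libraries agreed within sampling noise.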

Additional observations from a re-analysis of the deposited data

How the results depend on the processing

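At 100 µM against the controls, the 24 calls became 24 with RLE factors, 25 with upper-quartile factors, 24 with nuclear library sizes, 26 with DESeq2, 23 with limma-voom, 27 with no filter (64 genes tested) and 19 with only the compared groups in the fit (27 tested); thinning every library to the smallest left 23 genes tested and 13 calls. The calls with no filter included ATCG00380 (-5.755, adjusted p = 0.00257, edgeR) and ATCG00930 (-6.579, adjusted p = 0.029), which had no reads at 100 µM. ATCG00930 held 32 of its 34 reads in control replicate 1. Leaving out 1 library at a time gave 20 to 27 calls, and 25 to 33 against the lower doses, where thinning gave 17. Of the 24 calls 14 held under every alternative that tested the gene, 10 were lost under at least 1 and 0 reversed. Of the 29 against the lower doses 20 held in that sense and 9 were lost under at least 1. An alternative that left a gene untested, as thinning did for some, was not counted as a loss. ATCG00140 reversed against the lower doses to -0.37 without 100 µM replicate 2, its range with single libraries left out being -0.37 to 2.34. The median log2 change at 100 µM against the controls was -1.99 without 100 µM replicate 2. With the code digit as a term and no 100 µM libraries, 10 µM against the controls gave 1 call (ATCG00280, -1.93, adjusted p = 0.0235 by edgeR). In that fit 10 against 1 µM also gave 1. The digit term rests on control replicate 2, the only control with digit 8. Without the digit, 10 against 1 µM gave 3 calls with only its groups in the fit, 1 without the 100 µM group and 0 to 1 with single libraries left out. The causes were not tested. TMM factors from all genes before the filter, added after seeing the data, kept 24 calls and put the median of all genes at -0.0938.

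Shares at 0.1 µM against the controls reversed to -0.0145 points without ATCG00740 and ran from -0.0349 to 0.0625 with single libraries left out; the like ranges for 1, 10 and 100 µM went from 0.00453 to 0.0574, from 0.0517 to 0.149 and from -0.26 to -0.235. Whether the replicate numbers shared by the groups pair the libraries was not tested, and the main fit took them as unpaired. Of 30 same-numbered pairs, 6 had correlated deviations over 0.1 (r from -0.137 to 0.268), and 8 of 15 libraries correlated best with their own number. No reference value was set for these figures, so they do not settle it. A replicate block gave 26 calls at 100 µM against the controls, 30 against the lower doses and 0 in the other 5 comparisons. The filter kept 25 of the 64 genes out of the tests, most for low counts. ATCG01210 was among them with 4463 reads, of which 4453 lay in 1 library.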
